A study of Homo sapiens with 36 samples.

Results

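HL60 is a promyelocytic leukemia cell line, and the comparison described here asks what its transcripts did when cytarabine was added to daunorubicin. It sets 3 libraries of HL60 cells treated for 24 h with 0.1 µM cytarabine and 0.02 µM daunorubicin (the combination) against 3 libraries of HL60 cells treated for 24 h with 0.02 µM daunorubicin alone. These 6 libraries were chosen by cell line and treatment, as labelled, from the 36 of the series. Both groups carry daunorubicin, and their treatments differ only in cytarabine. The paper that reported these data gives little cell death in HL60 with daunorubicin and far more with the combination, by a viability assay. The part of dying cells in the results below was not tested. The series also holds HL60 cells given the solvent DMSO or 0.1 µM cytarabine alone, and the same 4 treatments of 2 further leukemia lines, of which MOLM13 is used here for comparison. All cells are labelled WT, meaning that no gene was engineered, and each group has 3 samples labelled as biological replicates. Nothing in the sources used here says whether they were separate cultures or days, so the p-values rest on sample-to-sample spread that may be technical. The data are one established line at 1 dose and 1 time.

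Cytarabine is a cytidine analog that is phosphorylated in the cell and built into DNA, where it stalls the replication fork. The anthracycline daunorubicin slides between DNA bases and traps topoisomerase II there, which leaves DNA breaks. Cells that sense damaged or unfinished DNA halt the cell cycle, for which the kinase inhibitor p21, made by CDKN1A, is best known, and many of them also switch on stress-responsive transcription factors such as AP-1 and NF-kB. HL60 cells can be driven by several chemicals to stop dividing and to mature towards granulocytes or monocytes, with loss of MYC as an early event of that maturation.

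The 6 libraries held between 29132492 and 38002008 estimated counts. The share of mitochondrial transcripts was 5.24 to 6.19% with daunorubicin and 5.71 to 7.40% with the combination, and the share of transcripts with a retained intron was 4.52 to 5.39% and 4.83 to 5.80%, so both measures overlapped between the groups. Within each replicate number, both shares of the counts were higher in the combination library, and their part in the results below was not tested. After the normalization used below, 13 genes of the mitochondrial genome had a median log2 fold change of -0.135. Of these, 2 were positive, 11 negative and 0 called. Levels below are CPM, that is, counts scaled to the library total after TMM normalization, and are given for replicates 1, 2 and 3 in that order. A gene was called when the quasi-likelihood test of edgeR gave a Benjamini-Hochberg adjusted p under 0.05 and the log2 fold change was beyond 1 in either direction. The cells carried the marks of their origin: MPO, the myeloperoxidase of promyelocytes, lay at 2517, 2745 and 4014 CPM with daunorubicin, and CEBPE and CD33 were also transcribed. The neutrophil elastase gene ELANE and its neighbour AZU1 were at 0 or near it in all 6 libraries, at most 0.397 CPM. In a bulk library, fewer cells of a type and less RNA per cell cannot be told apart. Transcripts that could not be matched to a gene held 4.04 to 4.44% of the counts, and copies on alternate sequences of the genome would be among them, so the levels of genes with such copies are uncertain.

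Adding cytarabine raised 984 of 14937 tested genes (6.59%) and lowered 389 (2.6%), of which 790 and 337 were protein-coding. The median log2 fold change over all tested genes was 0.03. With the adjusted p alone, without the fold threshold, the 2 directions were about equal, at 2190 genes higher (14.7%) and 2279 lower (15.3%), so the larger changes were mostly rises and the falls were mostly smaller. Many rises started from little transcript: 395 of the 984 genes had a mean under 1 CPM with daunorubicin. In 3470 genes (23.2%) all 3 combination libraries lay above all 3 daunorubicin libraries, and in 3423 (22.9%) all lay below. Those shares are the background for every statement below that the groups were separate. The 6.59% and 2.6% are the background for every count of list members called higher or lower. Among the gene lists described below, chemokine, immediate early, NF-kB and monocyte genes had the highest medians, and granule, ribosome biogenesis, cholesterol and folding genes had the lowest apart from a list of promyelocytic line markers that shares MPO and PRTN3 with the granule genes.

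**Figure D1:**
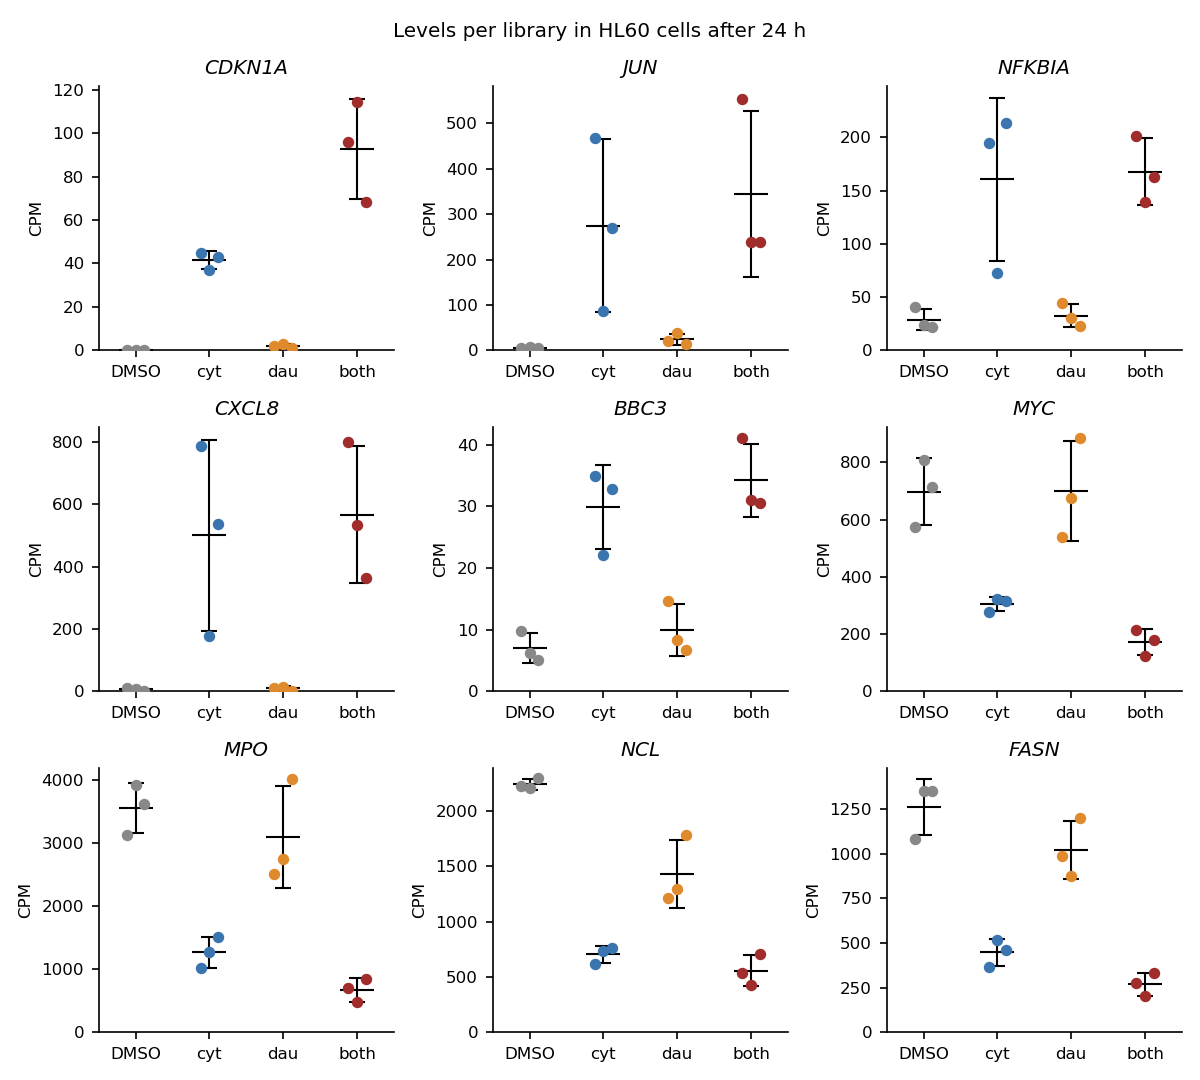
Levels (CPM) of 9 genes in each HL60 library, 3 per treatment (cyt, cytarabine; dau, daunorubicin; both, the combination); points are libraries, horizontal bars are means and error bars are SD (n = 3). In all 9 panels the 3 combination libraries lie outside the range of the 3 daunorubicin libraries, above it for CDKN1A, JUN, NFKBIA, CXCL8 and BBC3 and below it for MYC, MPO, NCL and FASN.

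CDKN1A, which encodes the cyclin-dependent kinase inhibitor p21, showed one of the clearest rises. It was at 1.96, 2.87 and 1.00 CPM with daunorubicin and at 95.8, 114 and 68.3 CPM with the combination. Every combination library was far above every daunorubicin library, and the log2 fold change was 5.56 ± 0.33 (SE, adjusted p = 5.25e-05). Cytarabine alone took CDKN1A from a mean of 0.219 CPM in DMSO to 41.5 CPM. Kinase inhibitors of another family also rose, CDKN2C by 1.24 and CDKN2D by 1.40 on the log2 scale, and so did the cyclin E2 gene CCNE2, which drives entry into S phase, from 42.5, 46.7 and 39.0 CPM to 115, 132 and 185 CPM. Of 22 tested genes of the G1 to S step, 4 were called higher and 0 lower, against 6.59% and 2.6% of all genes. The median log2 fold change of the 22 was 0.39.

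Other genes of growth arrest and cell death rose with it. BTG2, an antiproliferative gene, went from 16.2, 11.9 and 7.42 CPM to 125, 81.7 and 127 CPM (log2 fold change 3.23 ± 0.27, adjusted p = 0.000244). CD82, a tetraspanin, rose by 1.87 on the log2 scale. BBC3, which encodes the pro-death protein PUMA, went from 14.6, 8.395 and 6.77 CPM to 41.0, 31.0 and 30.6 CPM. The groups did not overlap, and the lowest combination library was at over 2 times the highest daunorubicin library. PMAIP1, which encodes NOXA, a protein of the same BH3-only class, was very even within each group, at 56.8, 58.6 and 55.9 CPM against 163, 142 and 158 CPM.

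Several other genes of the damage response were not called. MDM2, which encodes a ubiquitin ligase, was at 80.4, 91.2 and 101 CPM with daunorubicin and at 90.4, 91.0 and 103 CPM with the combination, groups that overlap (log2 fold change 0.06 ± 0.12). BAX had a log2 fold change of -0.04 ± 0.11 and ZMAT3 of -0.14 ± 0.16. AEN and TRIAP1 were lower with the combination in every library, at log2 fold changes of -0.66 and -0.63, inside the fold threshold.

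The BCL2 family sets the threshold for mitochondrial cell death. Where 6.59% and 2.6% of all genes were called higher and lower, 4 of its 15 tested members were called higher and 0 lower. Beside BBC3 and PMAIP1 these were BMF, another BH3-only gene, at 26.1, 27.9 and 17.5 CPM against 82.1, 88.6 and 92.1 CPM, and the protective BCL2A1, at 1.41, 0.964 and 0.43 CPM against 6.92, 7.32 and 2.86 CPM. Both pairs of groups were separate. BCL2 itself was at a log2 fold change of -0.14 ± 0.17 and MCL1 at 0.35 ± 0.11. Of 18 death receptor and caspase genes, TNFRSF10B alone was called, at 31.6, 29.9 and 26.1 CPM against 71.9, 78.2 and 64.0 CPM. That count is near the 6.59% of all genes called higher. With the adjusted p alone, 7 of the 18 were higher and 0 lower, against 14.7% and 15.3% of all genes.

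Genes of NF-kB, a transcription factor that is held inactive by inhibitors whose genes it switches on itself, rose as a group. Of 18 tested subunits and feedback genes, 11 were called higher and 0 lower, and all 18 had a positive log2 fold change, with a median of 1.63. NFKBIA, the inhibitor that closes this loop, went from 44.1, 30.4 and 23.3 CPM to 201, 139 and 163 CPM (log2 fold change 2.37 ± 0.23, adjusted p = 0.000403). TNFAIP3, a deubiquitinase that also damps the pathway, went from 43.5, 37.4 and 29.8 CPM to 161, 194 and 189 CPM. In both, the lowest combination library was over 3 times the highest daunorubicin library. NFKBIZ, an atypical member of the inhibitor family that acts in the nucleus, was nearly absent with daunorubicin at 0.689, 0.454 and 0.323 CPM and reached 21.4, 23.7 and 8.08 CPM. Among the subunits, NFKB2 rose by 2.24 and RELB by 1.68 on the log2 scale, while RELA, the main activating subunit, was at 0.23 ± 0.10 and REL at 0.76 ± 0.28, neither called. NFKB1 was just past the fold threshold at 1.05 and its call was lost without daunorubicin replicate 1 or combination replicate 2.

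The promoters of several of these genes hold the letters to which NF-kB is known to bind. The stretches below are from RefSeq promoters of build GRCh38.p14, read 5′ to 3′ on the gene's strand, and lie upstream of the start that RefSeq gives. The GENCODE models of TNFAIP3, TNFRSF9 and CCL20 begin further upstream and cover part or all of the stretch. Capitals mark GGG, any 2 bases and TTTCC, or the reverse complement, except for CXCL8, where they mark TGANTCA, the letters bound by AP-1. They are shown because these genes rose together, are standard members of the NF-kB and AP-1 programs and hold the letters. NFKBIA lies at chr14:35404800-35404859 on the minus strand, TNFAIP3 at chr6:137867169-137867228 on the plus strand, NFKBIZ at chr3:101827745-101827804 on the plus strand, TNFRSF9 at chr1:7940880-7940939 on the minus strand, CCL20 at chr2:227813742-227813801 on the plus strand and CXCL8 at chr4:73740404-73740463 on the plus strand.
NFKBIA: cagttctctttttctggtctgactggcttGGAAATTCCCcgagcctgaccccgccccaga
TNFAIP3: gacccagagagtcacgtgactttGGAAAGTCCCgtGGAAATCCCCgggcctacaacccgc
NFKBIZ: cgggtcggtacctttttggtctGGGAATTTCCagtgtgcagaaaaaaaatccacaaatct
TNFRSF9: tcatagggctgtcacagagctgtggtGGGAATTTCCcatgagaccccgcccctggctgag
CCL20: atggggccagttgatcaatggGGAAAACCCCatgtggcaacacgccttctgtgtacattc
CXCL8: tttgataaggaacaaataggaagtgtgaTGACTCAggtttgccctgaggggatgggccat
Within windows of 300 bases, 250 before the start and 50 after it, 1.92% of all 27305 RefSeq promoters and 2.2% of those of tested genes held the NF-kB letters on either strand. Among genes called higher, 27 of 679 with a promoter in the table did (3.98%), and among genes called lower, 2 of 269 (0.743%). The AP-1 letters were in 9.57% of promoters of genes called higher, 2.23% of those called lower, 4.41% of those of tested genes and 7.76% of all promoters. Of 20 promoters of the immediate early list, 1 held them (5.0%). A match says that the letters are there, not that a factor was bound.

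**Figure D2:**
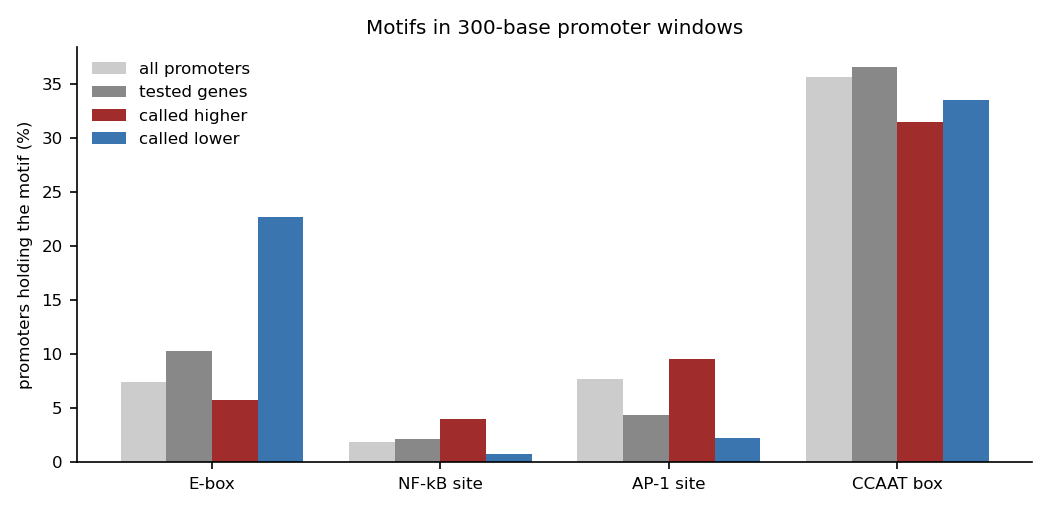
Share (%) of promoter windows of 300 bases that hold each of 4 motifs on either strand, for all RefSeq promoters, tested genes, and genes called higher or lower with the combination against daunorubicin. The E-box is in 22.7% of promoters of genes called lower and 5.74% of those called higher, while the NF-kB and AP-1 motifs are more frequent among genes called higher.

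Chemokines, the secreted proteins that draw leukocytes to a site, showed the largest rises of any list. Of 12 tested members, 10 were called higher and 0 lower, with a median log2 fold change of 2.41. CXCL8, which attracts neutrophils, went from 10.95, 15.4 and 2.83 CPM to 800.2, 534 and 364 CPM (log2 fold change 5.86 ± 0.54, adjusted p = 0.000379). CCL2, which attracts monocytes, went from 6.96, 11.1 and 2.69 CPM to 136, 157 and 152 CPM, and its combination libraries were much closer to each other than its daunorubicin libraries. CCL4 was at 0.906, 0 and 0.143 CPM and then at 44.3, 15.5 and 41.9 CPM. CCL5, which attracts T cells and monocytes, already had 52.96, 44.9 and 17.5 CPM with daunorubicin and reached 149, 163 and 64.7 CPM, with the lowest combination library only a little above the highest daunorubicin library. CXCL10 had no count in any daunorubicin library and 5.39, 8.71 and 2.80 CPM with the combination, at least 177-fold higher when the daunorubicin group is set to a floor of 3 counts over its 3 libraries. The calls of CXCL2, CXCL16 and CCL23, all at or under 1.5 CPM, were lost when single libraries were left out. Of 9 chemokines too low to test, none passed 1.9 CPM in any daunorubicin or combination library of HL60.

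Surface and secreted proteins of inflammation rose beside them. CD69, an early activation marker of leukocytes, went from 0.218, 0.113 and 0 CPM to 18.8, 6.30 and 10.0 CPM, and ICAM1, the adhesion molecule that leukocyte integrins bind, from 9.46, 9.05 and 4.95 CPM to 63.4, 121 and 60.6 CPM. TREM1, a receptor that amplifies inflammatory signals in myeloid cells, rose by 4.93 on the log2 scale and TNFRSF9, a co-stimulatory receptor, by 4.38. CCL20, which attracts dendritic and T cells, went from 1.31, 2.61 and 0.824 CPM to 10.3, 12 and 9.50 CPM. Of 18 cytokine genes, 7 were called higher and 0 lower, against 6.59% and 2.6% of all genes. IL1B went from 0.508, 0.369 and 0.43 CPM to 2.30, 3.06 and 2.64 CPM, and IL1RN, which encodes the antagonist of the interleukin 1 receptor, from 1.27, 1.02 and 0.573 CPM to 9.51, 8.03 and 7.26 CPM. Both had separate groups, at low levels. LTB rose by 2.71, TNFSF9 by 1.94 and IL1A by 3.80, whereas TGFB1 and IL32 were at -0.11 and -0.09. Among 29 genes of leukocyte adhesion and migration, 9 were called higher, including the formyl peptide receptors FPR1 (its call lost without combination replicate 2) and FPR2, and 1 lower, the integrin gene ITGA4, at 242, 233 and 219 CPM against 97.4, 91.7 and 120 CPM.

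**Figure D3:**
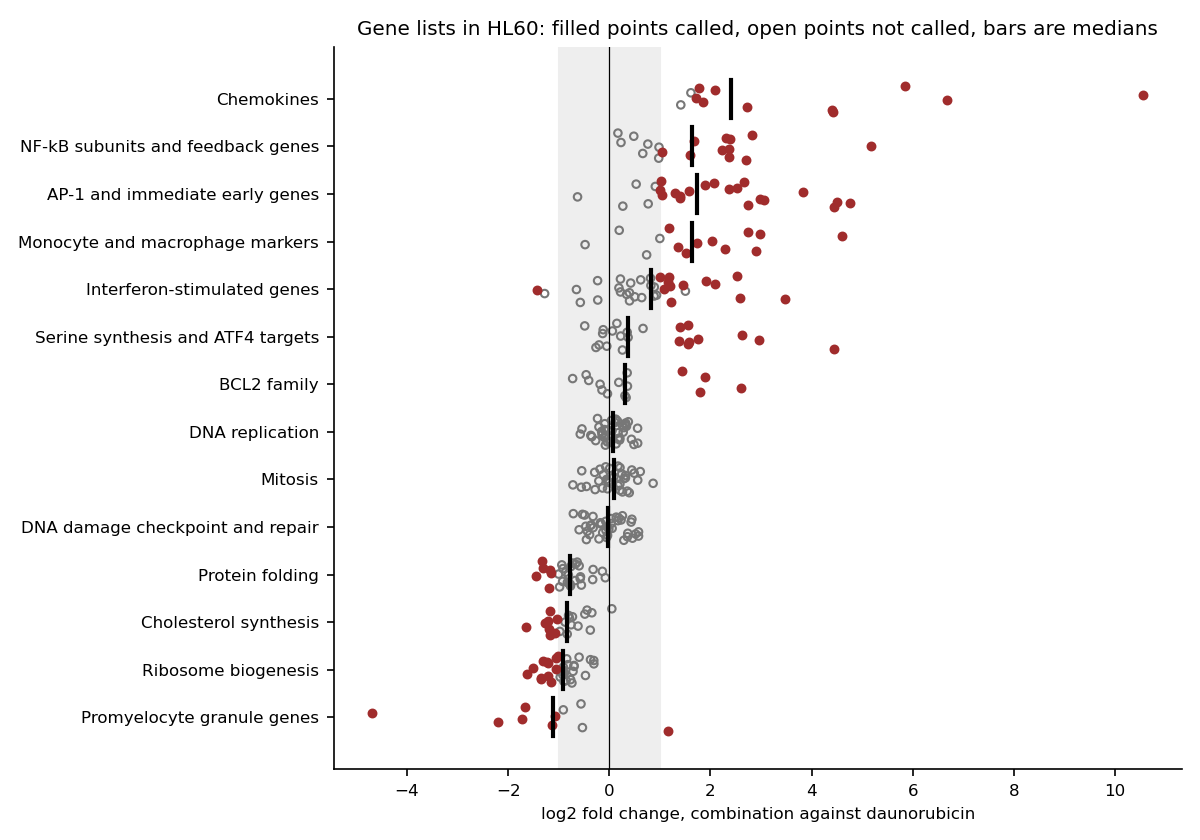
Log2 fold change of the combination against daunorubicin for every tested member of 14 gene lists; filled points are called, open points are not, black bars are medians, and the grey band spans 1 to either side of 0. Lists of inflammatory, immediate early and monocyte genes lie to the right, ribosome, folding, cholesterol and granule genes to the left, and replication, mitosis and repair genes inside the band.

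Immediate early genes, which are transcribed within minutes of many stimuli and include the subunits of AP-1, rose almost throughout. Of 24 tested members, 19 were called higher and 0 lower, with a median of 1.73. JUN, an AP-1 subunit, went from 20.5, 38.3 and 14.3 CPM to 555, 238 and 239 CPM (log2 fold change 3.82 ± 0.43, adjusted p = 0.000594). ATF3, which pairs with JUN and responds to several kinds of stress, went from 8.45, 8.65 and 5.88 CPM to 242, 147 and 109 CPM. EGR1, a zinc finger factor, went from 5.18, 4.57 and 2.11 CPM to 229, 59.1 and 33.0 CPM. In all 3 genes combination replicate 1 was the highest library by a wide margin, and the groups were separate. FOS showed the same, at 2.47, 2.98 and 1.65 CPM against 40.8, 9.65 and 5.22 CPM. FOSL2 (1.40) and JUNB (1.57) rose by less. FOSB and JUND, at 1.40 and 1.01, were called as well, but FOSB lost the call without combination replicate 1 or daunorubicin replicate 2, and JUND did so in several fits, among them the one with the replicate number as a block (log2 fold change 0.99). The ERK pathway feeds into these factors. Of 13 of its feedback genes, 3 were called higher and 0 lower, against 6.59% and 2.6% of all genes. EGR1 is in this list as well as in the immediate early list.

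Monocyte and macrophage markers rose from low levels. Of 14 tested members, 10 were called higher and 0 lower (median 1.63), and the other 16 were too low to test, none above 0.684 CPM. MMP9, a secreted gelatinase, went from 0.725, 0.312 and 0.251 CPM to 6.86, 20.2 and 3.81 CPM. S100A9, a component of the calprotectin complex of neutrophils and monocytes, went from 5.11, 7.29 and 5.23 CPM to 27.4, 58.6 and 31.2 CPM, and its partner S100A8 from 0.471, 0.936 and 0.717 CPM to 3.90, 8.76 and 4.28 CPM. FCGR2A, an activating receptor for immunoglobulin G, rose by 1.74 ± 0.19 and CSF1R, the receptor for the growth factor M-CSF, by 2.30 ± 0.38 on the log2 scale. The pan-macrophage gene CD68 was at 0.74 ± 0.36 and FCGR1A at -0.48 ± 0.26, both with overlapping groups. The integrin gene ITGAM, whose protein CD11b is the usual marker of maturing HL60 cells, went from 12, 19.7 and 5.20 CPM to 42.3, 75.9 and 35.4 CPM. Of 8 genes of the phagocyte NADPH oxidase, 3 were called higher, against 6.59% of all genes. Among the 3 were NCF1 (2.40 ± 0.41) and CYBB (1.35 ± 0.42). The call of CYBB did not hold when daunorubicin replicate 1, daunorubicin replicate 3 or combination replicate 2 was left out. NCF1 has near-identical pseudogene copies, so its count is uncertain.

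Granule genes of the promyelocyte went the other way. Of 10 tested members, 6 were called lower (60% against 2.6% of all genes) and 1 higher, with a median of -1.11. MPO fell from the levels given above to 702, 476 and 847 CPM (log2 fold change -2.19 ± 0.23, adjusted p = 0.000522). PRTN3, which encodes proteinase 3, went from 558, 790.0 and 1447 CPM to 55.7, 0 and 52.6 CPM. Both falls separated all 6 libraries, but PRTN3 was at 0 in 1 combination library and above 50 CPM in the others, for a reason that was not tested, and DESeq2 did not call it. RNASE3 (-1.67), MS4A3 (-1.73) and PRSS57 (-1.08) fell as well, the last with its call lost without combination replicate 2. CTSG, which encodes cathepsin G, had overlapping groups at 73.4, 141 and 172 CPM against 51.7, 38.9 and 85.6 CPM, and its call at -1.13 was lost when single libraries were left out. The 1 rise was BPI, a bactericidal protein made later in granulocyte development, at 1.16 ± 0.38, also with overlapping groups.

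Transcription factors of the lineage went both ways. CEBPA, the master factor of granulocyte fate, was lower in every combination library (507, 520.0 and 621 CPM against 308, 282 and 278 CPM) at a log2 fold change of -0.92 ± 0.12, inside the threshold, and MYB, which keeps progenitors dividing, was at -0.88 ± 0.11. CEBPB, which takes part in emergency granulopoiesis and monocyte maturation, went from 55.2, 56.6 and 43.3 CPM to 190.4, 157 and 107 CPM. SPI1, which encodes PU.1, was at 0.02 ± 0.13. Of 18 tested myeloid factors, 5 were called higher and 0 lower, against 6.59% and 2.6% of all genes. The 5 were EGR1 (4.76), counted among the immediate early genes too, EGR2 (4.49), KLF4 (2.52), CEBPB (1.56) and ID1 (4.38).

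MYC, which drives ribosome production and growth, fell from 540, 675 and 885 CPM to 213, 125 and 179 CPM (log2 fold change -2.02 ± 0.22, adjusted p = 0.000574). The highest combination library was well below the lowest daunorubicin library. Within the network of MYC and its partners, MXD3, a repressor that competes with MYC for its partner MAX, rose from 28.3, 20.5 and 15.8 CPM to 76.7, 67.4 and 48.6 CPM. MXD1 and MXD4, of the same family, were higher in every combination library at log2 fold changes of 0.99 and 0.86, inside the threshold. MAX itself was at -0.15 ± 0.12.

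Ribosome biogenesis genes moved in one direction. All 33 tested members had a negative log2 fold change, 30 of them passed the adjusted p alone (against 15.3% of all genes) and 12 also passed the fold threshold, with a median of -0.92 and a range of -1.63 to -0.30. NCL, the nucleolar protein nucleolin, went from 1212, 1298 and 1779 CPM to 537, 429 and 707 CPM (log2 fold change -1.36 ± 0.20, adjusted p = 0.00142). NPM1, nucleophosmin, went from 1984, 1815 and 2490.0 CPM to 1189, 874 and 1233 CPM, at -0.93 ± 0.16. In both, all combination libraries were below all daunorubicin libraries. NOP16 fell most, by 1.63, and POLR1B, a subunit of RNA polymerase I, by 1.51. RRN3 and TAF1C, which recruit that polymerase to ribosomal genes, were at -0.30 and -0.31 and had overlapping groups. The calls of POLR1A at -1.06 and WDR12 at -1.02, close to the threshold, were lost in some alternatives.

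Protein folding genes, the chaperones that a growing cell needs, showed the same direction. All 30 tested members were negative, 26 passed the adjusted p alone and 6 passed the fold threshold (median -0.79). FKBP4, a co-chaperone of HSP90, went from 249.9, 276 and 365 CPM to 105, 86.3 and 134 CPM, and TRAP1, its mitochondrial relative, from 328, 335 and 388 CPM to 145, 108 and 163 CPM. HSPE1, the mitochondrial co-chaperonin, and AHSA1 fell by 1.31 and 1.19. HSPA8 and HSP90B1, at -1.17 and -1.15, lost their calls without daunorubicin replicate 3. HSPA5, the main chaperone of the endoplasmic reticulum, was at -0.14 ± 0.20 with overlapping groups.

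MYC and its relatives bind the E-box, CACGTG, a palindrome that reads alike on both strands. Stretches of 5 promoters with an E-box upstream of the start are given because all 5 genes were called lower and stand for growth, folding and lipid genes. Build, strand and source are as above, the GENCODE models of HSPE1 and INSIG1 begin upstream of the stretch, and capitals mark the E-box. FJX1 lies at chr11:35618350-35618409 on the plus strand, ALDH18A1 at chr10:95656817-95656876 on the minus strand, HSPE1 at chr2:197500319-197500378 on the plus strand, INSIG1 at chr7:155297793-155297852 on the plus strand and UTP20 at chr12:101280045-101280104 on the plus strand.
FJX1: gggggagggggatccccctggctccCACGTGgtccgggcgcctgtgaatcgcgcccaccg
ALDH18A1: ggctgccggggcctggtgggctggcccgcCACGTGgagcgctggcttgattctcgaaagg
HSPE1: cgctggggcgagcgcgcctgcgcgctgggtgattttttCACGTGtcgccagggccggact
INSIG1: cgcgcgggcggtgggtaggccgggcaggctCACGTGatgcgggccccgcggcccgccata
UTP20: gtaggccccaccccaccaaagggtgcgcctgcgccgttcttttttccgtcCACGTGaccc
ALDH18A1, which makes the precursor of proline, went from 164, 192 and 222 CPM to 70.6, 63.5 and 82.4 CPM. FJX1, the human relative of the fly growth gene four-jointed, went from 14.3, 12.2 and 14.1 CPM to 2.43, 1.17 and 3.52 CPM, and UTP20, of the small ribosomal subunit processome, from 57.8, 72.1 and 108 CPM to 31.8, 29.0 and 53.2 CPM. In all 3 the groups were separate, but the call of UTP20, at -1.06, was lost without combination replicate 1 or 2 or daunorubicin replicate 3. The E-box was in 22.7% of promoters of genes called lower (61 of 269), in 5.74% of those called higher, in 10.3% of those of tested genes and in 7.43% of all promoters. Of 28 ribosome biogenesis promoters in the table, 9 held it (32.1%).

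Lipid synthesis fell in parallel. Of 21 tested genes of cholesterol synthesis and its control, 8 were called lower and 0 higher, 18 passed the adjusted p alone, and the median was -0.83. HMGCS1, which makes the precursor of mevalonate, went from 578, 524 and 685 CPM to 202, 111 and 258 CPM, with no overlap between the groups. INSIG1, which holds the controlling factor SREBP in check and is switched on by it, fell by 1.28, SQLE by 1.18 and CYP51A1 by 1.17. DHCR7 (-1.08) and MSMO1 (-1.04) lost their calls when single libraries were left out. FASN, fatty acid synthase, which shares this control, went from 989, 876 and 1198 CPM to 275, 202 and 330.1 CPM (log2 fold change -1.92 ± 0.19, adjusted p = 0.00043).

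Other large falls were in genes of varied function. DDN went from 33.7, 33.9 and 53.2 CPM to 7.58, 2.38 and 8.02 CPM, PLD6, a mitochondrial phospholipase, from 49.5, 41.9 and 41.5 CPM to 13.1, 5.44 and 8.18 CPM, and the chemokine receptor gene CCR8 from 50.7, 41.0 and 23.9 CPM to 8.15, 5.04 and 4.84 CPM. NRROS, which restrains reactive oxygen species in phagocytes, had tight groups at 86.1, 81.0 and 89.9 CPM against 32.0, 30.0 and 33.3 CPM, the smallest adjusted p among falls (0.000125). IGLL1 (-3.24), MZB1 (-2.43), SERPINB10 (-2.15), RAB3A (-2.15) and APLN (-2.02) also fell, as did UNC5C (-2.85), whose call was lost without combination replicate 2. Among rises, UNC5B, a netrin receptor, had the smallest adjusted p of all (2.97e-05), at 1.45, 1.45 and 1.33 CPM against 23.0, 21.9 and 17.6 CPM. KLHDC7B rose from 12.1, 6.33 and 2.15 CPM to 209, 168 and 86.4 CPM, and RGS16, a brake on G protein signalling, from 53.4, 60.4 and 52.0 CPM to 236, 201 and 205 CPM. ZBTB22, at 0 in all daunorubicin libraries and at 7.50, 8.61 and 6.79 CPM with the combination (at least 233-fold higher at the same floor), was at 0 in 2 of 3 DMSO libraries and at 9.80 CPM in the other. It lies in the major histocompatibility complex, of which alternate sequences exist, so how its reads were assigned is uncertain.

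Lists of DNA synthesis, division and repair genes had no calls. None of 42 DNA replication genes, 35 mitosis genes or 39 genes of the DNA damage checkpoint and repair were called in either direction, where 9.19% of all genes were. With the adjusted p alone these lists had 5, 7 and 7 members higher and 4 each lower, and their medians were 0.08, 0.09 and -0.03. Cytarabine alone against DMSO gave 0, 7 and 0 members of these lists called lower and 0, 0 and 1 called higher. TOP2A, the topoisomerase that anthracyclines trap, was at 365, 436 and 422 CPM against 324, 430.0 and 473 CPM, which overlap (log2 fold change 0.01 ± 0.15). CDC20, which switches on the ubiquitin ligase of anaphase, was lower in every combination library at -0.72 ± 0.17, and PLK1 and CCNB1 were at -0.54 and -0.45. NUSAP1, a spindle protein, was at 0.61 ± 0.11 and CENPE, a kinetochore motor, at 0.56 ± 0.15. The CCAAT box, CCAAT on either strand, was in 22 of 28 promoters of the mitosis list (78.6%) and in 36.6% of those of tested genes. Of 50 replication-dependent histone genes, 20 were tested and 2 were called higher, H2BC21 and H4C14, both at levels that differed widely between the combination libraries (9.32, 3.77 and 0.220 CPM for H4C14). Histone genes of the same kind outside the list, named after their values were seen, were also called higher: H2AC18 (1.48), H3C15 (1.65) and H4C15 (1.85), none above 5.95 CPM. Histone genes have near-identical copies, so how their reads were split is uncertain.

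Genes that handle the drugs changed in part. Of 19 tested genes of cytarabine uptake, activation and removal, 3 were called higher and 1 lower, against 6.59% and 2.6% of all genes. With the adjusted p alone, 6 of the 19 were higher and 4 lower. RRM2, the small subunit of ribonucleotide reductase, which makes the deoxynucleotides that compete with cytarabine, went from 741, 788 and 639.9 CPM to 1519, 1490.0 and 1522 CPM (log2 fold change 1.07 ± 0.11). The combination libraries were almost equal and all about 2 times the daunorubicin libraries. The call was lost without daunorubicin replicate 3, at 0.98. RRM2B and RRM1 were at 0.93 and 0.36, and DCK, the kinase that activates cytarabine, at 0.52 ± 0.11. SLC29A1, the transporter that brings cytarabine into cells, was lower in every combination library at -0.90 ± 0.14. CMPK2 rose by 1.23, and NME1, a nucleoside diphosphate kinase, fell by 1.23. CDA, the deaminase that inactivates cytarabine, was called at 2.05 but never passed 1.77 CPM, and its call was lost without any of 4 libraries. SAMHD1, which removes the active triphosphate, was at -0.08 ± 0.15. None of 13 genes of daunorubicin targets and handling were called, with a median of -0.21, where 9.19% of all genes were. For a list of this size, 0 calls is near that share. With the adjusted p alone, 1 was higher and 2 were lower, against 14.7% and 15.3% of all genes.

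Stress genes downstream of the factor ATF4 rose in part. Of 22 tested members of the serine synthesis and ATF4 list, 9 were called higher and 0 lower, with a median of 0.36. DDIT3, which encodes the stress factor CHOP, went from 12.5, 14.3 and 12 CPM to 145, 84.9 and 70.3 CPM (log2 fold change 2.95 ± 0.25, adjusted p = 0.000244). PPP1R15A, which restores translation after stress, went from 17.4, 19.5 and 9.25 CPM to 126, 90.4 and 69.2 CPM, and DDIT4, a brake on the growth kinase mTOR, from 159.6, 229.8 and 333 CPM to 943, 808 and 672 CPM. In all 3, combination replicate 1 was the highest and replicate 3 the lowest of their group. TRIB3 (1.56), CHAC1 (1.58), CTH (1.38) and SLC7A11 (1.40) also rose, while ASNS, the asparagine synthetase, was at 0.26 ± 0.14 and ATF4 itself at -0.26 ± 0.13. Of 19 oxidative stress and heme genes, 3 were called higher and 0 lower, against 6.59% and 2.6% of all genes. Among the 3 were FTH1, the ferritin heavy chain, at 284, 255 and 250.1 CPM against 720.4, 783 and 558 CPM, and HMOX1, at under 5 CPM. TFRC, the receptor for iron-loaded transferrin, was lower in every combination library at -0.99 ± 0.12, just inside the threshold, which it passed under RLE normalization, DESeq2 and no low-count filter (-1.002, -1.002 and -1.009).

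Interferon-stimulated genes rose in part. Of 34 tested members, 12 were called higher and 1 lower, against 6.59% and 2.6% of all genes, with a median of 0.82. OAS3, which makes the messenger that activates RNase L, went from 16.2, 23.1 and 11.6 CPM to 52.3, 86.7 and 78.4 CPM, and GBP2, a guanylate-binding protein, from 6.27, 6.30 and 2.65 CPM to 26.6, 32.7 and 31.8 CPM. Both were separate between the groups. IRF1 rose by 1.08. IFITM1, a membrane protein that blocks virus entry, was the fall, at 201, 174 and 199 CPM against 90.0, 61.5 and 60.7 CPM, and BST2 was lower in every combination library at -0.57. Of 5 tested APOBEC3 deaminase genes, APOBEC3G and APOBEC3D were called higher, at no more than 6.20 CPM.

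Markers of other cell types were low. Their summed levels were 18.4 to 30.6 CPM with daunorubicin and 35.9 to 53.3 CPM with the combination for T and NK cells, 9.39 to 15.8 and 17.9 to 19.3 CPM for B cells, 1.65 to 7.94 and 2.80 to 9.75 CPM for erythroid cells and megakaryocytes, and 3.23 to 5.26 and 5.57 to 6.41 CPM for stromal and epithelial cells. Of the 12, 8, 12 and 14 markers in these lists, 4, 5, 2 and 4 were high enough to test, and 1, 1, 0 and 1 were called higher: NKG7, FCRL1 and COL1A1. Of the defining markers, 5, 3, 8 and 5 were at 0 in all 6 libraries. Their part in the results above was not tested.

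MOLM13, a monocytic leukemia line, was treated at the same doses for the same time. In this line the paper reports high cell death with daunorubicin alone as well as with the combination. The part of that death in the values below was not tested. Of 15345 genes tested there, 0 were called (0%) when cytarabine was added to daunorubicin by edgeR, where 169 had an unadjusted p under 0.05 and the smallest adjusted p was 0.159. DESeq2 called 3, of which PMS2CL and ITGB1P1 are pseudogenes and ENSG00000283782 has no name. Of the HL60 genes called higher, 759 were tested in MOLM13, where 401 were positive with a median log2 fold change of 0.02, and of those called lower, 348 were tested and 124 were negative with a median of 0.04. CDKN1A was at 1626 CPM in MOLM13 with daunorubicin already, and its log2 fold change on adding cytarabine was -0.04. MYC, at 299 CPM, was at 0.22, and the median of the ribosome biogenesis list was 0.05.

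Whether the response to added cytarabine differed between the lines was tested directly as an interaction over 12 libraries. Of 16945 genes, 843 passed (4.97%), 525 with a higher log2 fold change in HL60 (3.1%) and 318 with a lower one (1.88%). CDKN1A differed by 5.61 (adjusted p = 0.000121), CXCL8 by 6.01, ATF3 by 4.59, EGR1 by 4.82, NFKBIA by 2.29 and BBC3 by 1.75. In the other direction, MYC differed by -2.22 (adjusted p = 0.00236), MPO by -2.02, FASN by -2.02 and NCL by -1.41. Of the lists, 14 of the immediate early genes, 10 of the NF-kB genes and 8 of the monocyte markers passed with a higher value in HL60, and 11 of the ribosome biogenesis genes and 6 of the folding genes with a lower one. The count fell to 512 without HL60 combination replicate 2, 507 without HL60 daunorubicin replicate 3 and 535 without MOLM13 daunorubicin replicate 1.

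**Figure D4:**
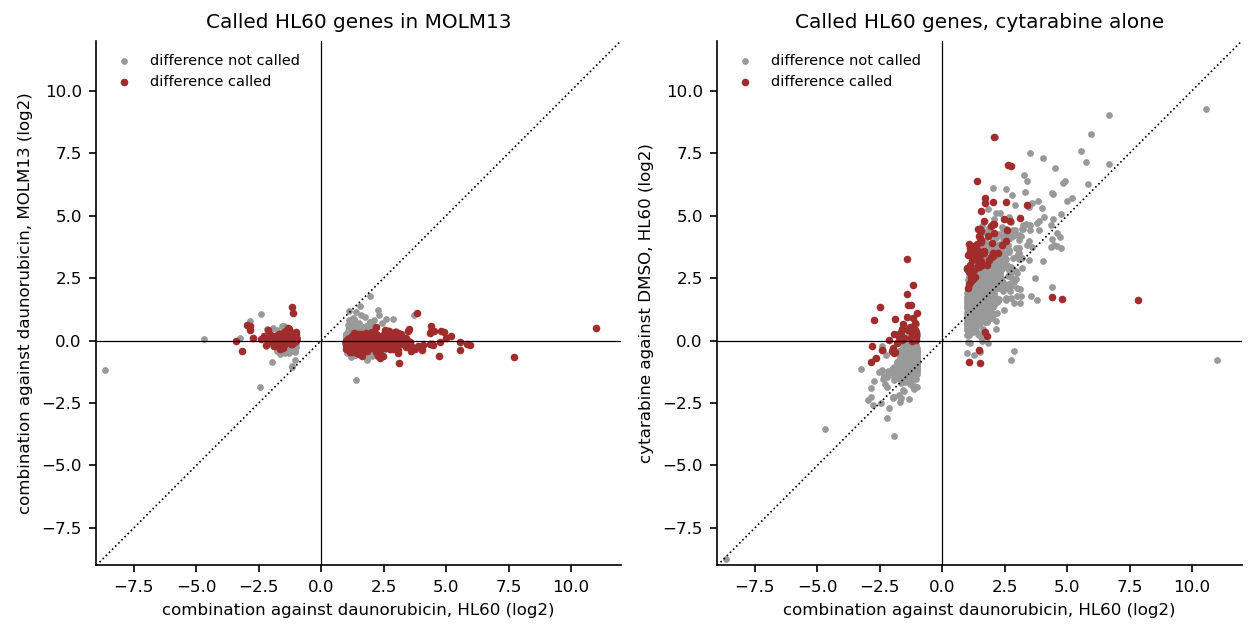
Log2 fold changes of the genes called in HL60, plotted against their log2 fold change on adding cytarabine to daunorubicin in MOLM13 (left) and on cytarabine alone against DMSO in HL60 (right); each point is a gene, red points passed the test of the difference between the 2 contrasts, and the dotted line marks equal change. The points lie along 0 in MOLM13, where 0 genes were called, and in the right panel 1242 of 1304 have the same sign in both contrasts.

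The same drug was also added to HL60 cells without daunorubicin, in libraries that share no sample with the comparison above. Cytarabine against DMSO gave 2017 of 14578 genes higher (13.8%) and 417 lower (2.86%), 16.7% in all. Of the genes called on adding cytarabine to daunorubicin, 1304 were tested there and 1242 had the same sign. The change was compared between the 2 settings as an interaction over the 12 HL60 libraries. Of 15608 genes, 481 passed (3.08%), 39 with a higher log2 fold change in the presence of daunorubicin (0.25%) and 442 with a lower one (2.83%). With the replicate number as a block, 883 passed, 89 higher and 794 lower. The count was 269, 245 and 267 without daunorubicin replicate 1, daunorubicin replicate 2 and DMSO replicate 3.

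Most of the genes that passed had a lower value in the presence of daunorubicin. The difference includes the change by daunorubicin itself with a minus sign, so a high level with daunorubicin lowers it by construction. CXCR3, a chemokine receptor, had means of 0.73 CPM in DMSO, 13.4 with cytarabine, 8.81 with daunorubicin and 13.98 with both, a difference of -3.54 (adjusted p = 0.000805). HR differed by -4.57, SLC43A2 by -4.24, ADAMTS14 by -3.57, PTPRF by -3.28, CSPG5 by -3.27, IL17RE by -3.18, GPSM1 by -3.15 and WNT5B by -3.07. ICAM1 differed by -2.02 and NFKB2 by -1.25, although both rose in either setting. PTPRF, a receptor phosphatase, rose by 1.88 with cytarabine alone and fell by 1.43 when cytarabine was added to daunorubicin, from 12.1, 12.3 and 10.1 CPM to 4.17, 2.71 and 5.94 CPM.

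Genes with a higher value in the presence of daunorubicin were few. ID1, which inhibits differentiation factors of the helix-loop-helix family, went from 0.326, 0.425 and 0.251 CPM to 11.3, 5.57 and 4.40 CPM (log2 fold change 4.38 ± 0.44, adjusted p = 0.000469), while cytarabine alone took it from a mean of 0.738 to 2.43 CPM, a difference of 2.66 (adjusted p = 0.0328). KDM7A, a histone demethylase, differed by 1.65. CENPE differed by 1.62, with means of 95.9 CPM in DMSO, 46.0 with cytarabine, 30.6 with daunorubicin and 45.0 with both, so that cytarabine alone came with a lower level than DMSO and cytarabine on top of daunorubicin with a higher one than daunorubicin. CDC20 differed by 1.09, PSRC1 by 1.64, HSPA5 by 1.06 and the linker histone genes H1-2 and H1-10 by 2.41 and 1.44, with H2BC12 at 2.04, NEFH at 1.54 and GMEB1 at 1.48. A low level with daunorubicin raises the difference by construction. ID1 and KDM7A apart, none of these genes was called on adding cytarabine to daunorubicin. In that comparison the log2 fold changes of H2BC12, NEFH and GMEB1 were -0.26, -0.55 and 0.06, and CDC20 was lower, as given above. By list, 7 of 29 leukocyte adhesion genes, 4 of 35 mitosis genes, 4 of 20 histone genes and 3 of 34 interferon-stimulated genes passed this test in either direction, where 3.08% of all genes did. None of the ribosome biogenesis, AP-1, DNA replication, cholesterol synthesis or DNA damage checkpoint and repair genes passed. For lists of these sizes, 0 is near that share.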

How the data were processed

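RNA of the 36 samples was sequenced as unstranded paired-end libraries, of which the 24 of HL60 and MOLM13 were read and those of OCIAML3 were not used here. The authors' deposited files hold, per transcript, estimated counts and TPM values made with Salmon 1.8.0 against a GRCh38 Ensembl transcriptome (coding and non-coding, genome as decoy) after FastQC 0.11.9 (submitters' notes). The Ensembl release is not given in the sources used here. The deposited TPM values and effective lengths were used only for the transcript length offset.

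Transcript identifiers were looked up in GENCODE 44, which placed 235378 of 252199 in 59041 genes and left 16821 unused. Gene sums of the estimated counts were then rounded. A low-count filter followed (filterByExpr, with a minimum count of 10 and a minimum total of 15), and genes were normalized by TMM and tested with glmQLFit (legacy) and glmQLFTest in edgeR 4.0.16 under R 4.3.3, in the 6 libraries of the comparison. The SE was taken as |log2 fold change| over the root of the F statistic. CPM levels use TMM factors of the 12 HL60 libraries, or the 12 of MOLM13. Interactions were fitted over 12 libraries. The depth of 29132492 to 38002008 counts limits the genes under about 1 CPM most. Floors cover counting error only.

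Pairs of replicates differed by 20.2 to 49.1 chi-square units per gene, so none was a copy of another. Deviations from the group mean of HL60 libraries with the same replicate number correlated at 0.245, 0.119 and 0.287. With other numbers they correlated at -0.284 to 0.0408, -0.0779 to -0.0328 and -0.155 to -0.141. The numbers were therefore taken to pair these samples. The main test and both interactions did not use this pairing, which entered only the fits with a replicate block. No label states this pairing. In MOLM13 the same-number correlations were 0.224, 0.462 and -0.00984, and replicate 3 reached 0.321 with another number. The numbers were not taken to pair the MOLM13 samples. The fits with a replicate block that include MOLM13 nevertheless blocked its samples by number. Without strand, overlapping and antisense genes cannot be told apart.

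The comparison, the 35 gene lists and the motifs were chosen with earlier results of these data known. Named genes were the 15 protein-coding genes with the largest rise and fall among called, non-overlapping genes at 5 CPM or more, the 10 with the smallest p in each direction, list members, genes the paper names and the 10 largest differences per direction of each interaction. Which of these serve as examples was decided with their values in view. Promoters of RefSeq (GRCh38.p14) were matched by symbol. Alternatives were RLE, DESeq2 1.42.0, no filter, at least 1 CPM in 3 libraries, the newer quasi-likelihood, a replicate block, 1 fit of 12 HL60 libraries, the length offset, protein-coding genes alone, no fold threshold and leaving out each library. Tests were checked on simulated counts. Figures used Python 3.11.15 and matplotlib 3.10.9. Some results are not reported here.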

Additional observations from a re-analysis of the deposited data

Results flagged for a closer look

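The results here are those whose size differed between 2 cell lines or 2 drug settings by a test of the difference itself. None of the groups has more than 3 libraries, so single libraries were not screened for outliers.

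The response to added cytarabine differed between HL60 and MOLM13 for 843 genes. The log2 differences, HL60 minus MOLM13, were 5.61 for CDKN1A, 6.01 for CXCL8, 3.84 for CCL2, 5.01 for NFKBIZ, 4.82 for EGR1, 4.59 for ATF3, 2.72 for JUN, 2.29 for NFKBIA, 1.75 for BBC3, 5.70 for MMP9, 3.99 for ID1, 3.27 for ICAM1, 2.25 for NFKB2 and 1.54 for KDM7A. They were negative for MPO (-2.02), MYC (-2.22), FASN (-2.02), NCL (-1.41), PLD6 (-2.46), DDN (-2.85), GJA3 (-2.29), TMEM158 (-2.49), SPINT2 (-3.35), PITX1 (-5.97) and the lncRNA SNHG4 (-2.30). PITX1 was not detected in MOLM13 with daunorubicin, so its difference is not a measured change there. Others had low levels in one line: in MOLM13 with daunorubicin MMP9 was at 0.106 CPM, GJA3 at 0.235 CPM, TMEM158 at 0.508 CPM and MPO at 21.01 CPM, and in HL60 SPINT2 was at 0.527 CPM with daunorubicin and 0.0461 CPM with the combination.

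The response to cytarabine in HL60 differed with and without daunorubicin for 481 genes. The log2 differences, with minus without, were 2.66 for ID1, 2.41 for H1-2, 2.04 for H2BC12, 1.65 for KDM7A, 1.64 for PSRC1, 1.62 for CENPE, 1.54 for NEFH, 1.48 for GMEB1, 1.44 for H1-10, 1.09 for CDC20 and 1.06 for HSPA5. They were -4.57 for HR, -4.24 for SLC43A2, -3.57 for ADAMTS14, -3.54 for CXCR3, -3.28 for PTPRF, -3.27 for CSPG5, -3.18 for IL17RE, -3.15 for GPSM1, -3.07 for WNT5B, -2.02 for ICAM1 and -1.25 for NFKB2.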

How the results depend on the processing

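The counts of genes higher and lower in HL60 stayed within 1.5 times of 984 and 389 under every alternative that kept the fold threshold. Without it they were 2190 and 2279, and leaving out each library gave 696 to 1026 and 276 to 576. The median log2 fold change over all genes stayed between 0.01 and 0.07. The replicate block gave 1121 and 447, and 1172 for the difference between lines, within 1.5 times. The 1172 rests on blocking the MOLM13 samples by number as well. For the difference between HL60 and MOLM13, leaving out each library gave 507 to 1019 genes, and no fold threshold 1811 (an alternative chosen after seeing the data). For the difference with and without daunorubicin, no low-count filter gave 882, the replicate block 883, no fold threshold (also chosen after seeing the data) 802, and leaving out each library 245 to 629. For MOLM13, whose count was itself added after seeing the data, DESeq2 gave 3 calls, no low-count filter 2 (ITGB1P1 and ENSG00000283782), and leaving out each library 0 to 1 (ALOX5 or HEIH), all with fitted log2 changes beyond 7. The cause of these shifts was not tested.

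Of 218 genes in the sensitivity set, 159 were called, 133 of these held under all alternatives, 24 lost the call when some library was left out, 11 lost it under another alternative, and none reversed. Another 13 gained a call under some alternative, among them TFRC, NPM1, MXD1, REL, RRM2B and SLC29A1. With the replicate block, JUND lost its call and CSPG5 gained one, and no other gene of this set changed. The list of folding genes called lower went from 6 to 10 without daunorubicin replicate 1 and 14 without combination replicate 3, and no other list with at least 4 calls moved by over 1.5 times.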
